A study of Homo sapiens with 45 samples.

Results

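Experimental batch KD3 of this knockdown series comprised 7 of its 45 arrays, and it was compared here with the 23 arrays of batch KD2. The members were the arrays of siRNA against CCNB2, ETS1, MCM2, MITF, PIAS1, SP1 and STAT3, placed in KD3 by the study's own table of batches, which places 9 further arrays in batch KD1. The KD2 arrays carried siRNA against ABL1, AKT1, CCNA2, CCNB1, CCND3, CDC16, CDC37, CDK4, CDKN2C, CEBPD, CEBPZ, CHEK1, FOXM1, GABARAP, HDAC2 and HDAC3. Their other targets were MAP2K1, NMI, PIK3CB, RBL2, RELA, SP100 and STAT6. Those of KD1 were CDC2, CDC25B, CDK7, CTNNB1, FOXO3A, HSF2, PCNA, RB1 and TCEA1. All arrays carry RNA from A375, an established human melanoma cell line, and the study silenced regulators of transcription and the cell cycle 1 at a time to learn which genes vary together. Each targeting siRNA pool was transfected at 100 nM, as the labels give it (the study's methods give another concentration), into a single culture that was harvested at 48 h and hybridised to 1 Affymetrix U133 plus 2.0 array. Another 3 arrays carry control siRNA and 3 are untreated, and the sources used here do not place them in a batch. No siRNA was used in both KD2 and KD3, so culture batch and the set of silenced genes cannot be told apart by design. Each batch is 1 batch, and the p-values below measure the spread between its cultures.

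Cells hold an integrated stress response, in which kinases that sense amino acid shortage, misfolded protein or other stress slow translation and raise the factor ATF4. ATF4 and its partners then induce enzymes that make amino acids, the transporters that import them, the enzymes that charge tRNAs and stress factors such as CHOP (DDIT3) and TRIB3. Proliferating cells also run an E2F-driven programme of DNA replication genes before S phase, and heat shock proteins and splicing factors are among their abundant messengers.

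KD3 stood apart from KD2 across the whole array. Of 54613 probe sets tested, 24336 (44.6%) differed at an adjusted p under 0.05 in limma, of which 11401 were higher and 12935 lower in KD3. With 1 probe set for each of 19775 genes (that of the highest mean), 9925 genes were called, or 50.2% of those tested. Of these, 4249 (21.5%) were higher in KD3 and 5676 (28.7%) lower, and most of the differences were small, with a median absolute difference over all genes of 0.15 on the log2 scale. Only 386 genes were called higher by at least 2-fold (1.95% of those tested) and 439 lower by at least 2-fold (2.22%). Counts at 2-fold, here and below, are of fitted differences, in which levels below the noise limit given later enter as measured. All 7 KD3 arrays lay above or below all 23 KD2 arrays for 3485 genes (17.6%). The first principal component of the 30 arrays took 53.3% of their variance and separated the batches, and the next took 5.42%. Counts of called members in a gene list from this fit are read below against these shares.

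Measures of RNA and labelling moved with the batch, and their part in the gene differences was not tested. The 3' less 5' difference of the ACTB control probe sets, which grows with RNA degradation or incomplete labelling, was 0.58 ± 0.04 (log2, SD, n = 7) in KD3 and 1.49 ± 0.21 (SD, n = 23) in KD2, and the groups did not overlap (exact permutation test, two-sided, adjusted p = 1.31e-06, the smallest raw p being 4.91e-07). The 18S rRNA control probe sets were higher in KD3 by 1.03 and the poly-A controls by 0.71, with the same adjusted p. Their means (6.74 against 5.71 and 4.85 against 4.13) lay below the noise limit defined later in this paragraph. These 2 differences are as measured and are no sizes of change. The array medians, between 5.06 and 5.15 on all 45 arrays, did not pass the test (adjusted p = 0.375 by the same exact test). Every gene below was also fitted with the ACTB and GAPDH 3' less 5' difference as a covariate, although that covariate and the batch correlated at -0.91. That fit called 6016 of the 19775 genes, of which 3161 were lower in KD3 and the others higher. Its counts of called genes are given beside those of each list described. They are read against these totals and not against the shares of the fit without the covariate. RNA of leukocytes, fibroblasts and endothelial cells was not apparent. None of their markers (13, 10 and 8 measured) was called higher in KD3, and none was above the noise limit in KD2 or KD3. This limit lies at 8.59 on the log2 scale, 1.5 times the median signal of the 3' BioB spike, and a level below it is only a bound. Summed over the list, the leukocyte markers were at 8.58 to 8.84 in KD3 and 8.85 to 9.52 in KD2, the fibroblast markers at 8.81 to 9.05 and 8.96 to 9.37, and the endothelial markers at 7.75 to 7.96 and 7.92 to 8.23 (log2 intensity). Of 10 keratinocyte and epithelial markers, 3 were called higher and 2 lower in KD3 (2 and 2 with the covariate). The 2 above the limit were KRT10 and KRT18. Whether epithelial RNA was present was not tested.

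**Figure D1:**
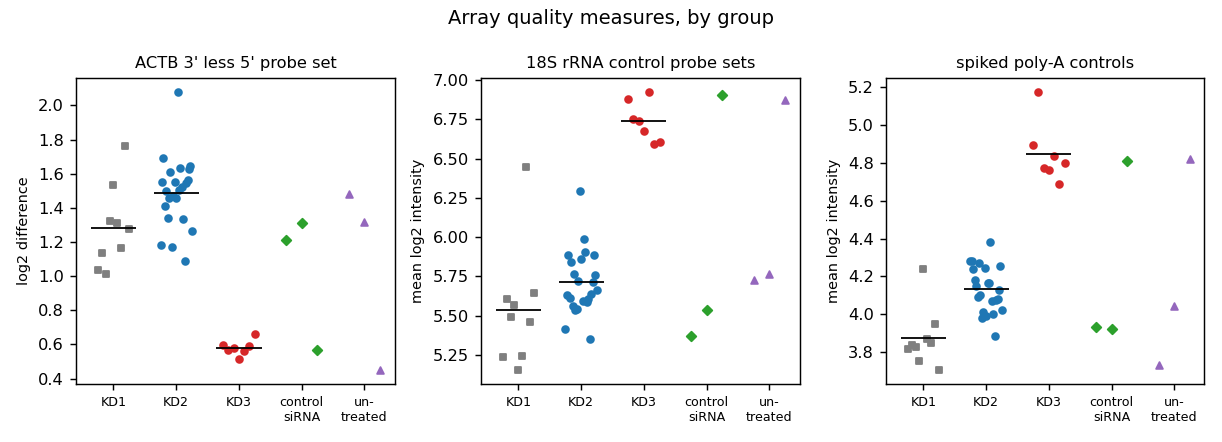
Array measures in each of 45 arrays, by group: the log2 difference between 3' and 5' ACTB probe sets, the mean log2 intensity of the 18S rRNA control probe sets and that of the spiked poly-A controls. Points are arrays and bars are batch means. The 7 KD3 arrays lay apart from all KD2 arrays in each panel (ACTB mean 0.58 against 1.49), as did control siRNA array 3 and untreated array 3. The 18S rRNA and poly-A means lie below the noise limit of 8.59.

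Genes of amino acid supply and the ATF4 response formed the sharpest difference between the batches. All 29 measured genes of this list were called higher in KD3, against 21.5% of all genes. Of these, 25 had a fitted difference of at least 2-fold, with levels below the noise limit as measured. For genes below that limit this is no size of change. The median difference of the 29 genes was 1.69 (log2), where that of all genes was -0.03. In 27 of the 29 genes no KD2 array reached the lowest KD3 array, the exceptions being DDIT4 and SLC1A4. With the covariate all 29 remained called higher, with a median of 1.68. The median of the list was taken in each array against the KD2 means. It lay between 1.62 (CCNB2 siRNA) and 1.75 (MITF siRNA) in KD3 and between -0.15 and 0.14 in KD2. Parts of the list varied more: the median of its regulators and stress factors ran from 2.00 (ETS1 siRNA) to 2.64 (MCM2 siRNA) in KD3. A part of the silenced gene in these values was not tested.

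The enzymes that make amino acids and feed folate metabolism (8 measured) were called without exception, with a median difference of 1.97. ASNS, which makes asparagine, was at 12.94, 13.09 and 13.13 (lowest, median and highest log2 intensity) in KD3 and at 9.03, 9.48 and 9.93 in KD2. The groups lay far apart and each was narrow. The fitted difference was 3.64 ± 0.07 (SE, adjusted p = 2.27e-31, limma), a fold of 12.5. MTHFD2, the mitochondrial folate enzyme, rose by 1.69 to a mean of 13.27, PHGDH, which opens serine synthesis, by 1.65, SHMT2 by 1.22 and PSAT1 by 1.19. CTH, which makes cysteine from cystathionine, and the folate enzyme ALDH1L2 were below the noise limit in KD2 (means of 7.16 and 5.55), so that their means of 10.46 and 9.45 in KD3 were at least 3.67-fold and at least 1.82-fold higher. PSPH, the last enzyme of serine synthesis, was likewise at least 2.67-fold higher.

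All 6 amino acid transporters were higher, with a median of 1.36. SLC3A2, the heavy chain shared by several transporters, was at 11.47, 11.68 and 11.77 in KD3 and at 9.05, 9.30 and 9.55 in KD2, a difference of 2.35 ± 0.07 (SE, adjusted p = 1.87e-25, limma). Its partner SLC7A11, which imports cystine, differed by 1.98 and SLC7A5, which imports leucine and other large amino acids, by 1.40. The arginine and lysine transporter SLC7A1 differed by 1.32 and the glutamine transporter SLC1A5 by 0.93, and the neutral amino acid transporter SLC1A4, below the limit in KD2, was at least 1.14-fold higher. SLC7A5 and SLC1A5 were higher in batch KD1 than in KD2 too, by 1.10 and 1.02. Over the whole list, KD1 against KD2 had a median of 0.00, with 11 genes called higher (26.2% of all genes) and 8 lower (22.9%). KD3 against KD1 had a median of 1.73, with 27 genes called higher (22.7% of all genes) and none lower (31.5%). These comparisons share arrays and are given side by side only.

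Of the 9 regulators and stress factors, all were called higher, with a median of 2.41. ATF4, which is controlled largely at translation, differed by 0.94 ± 0.05 (SE), from 11.58 to 12.52. TRIB3, a pseudokinase that restrains the response, was at 12.28, 12.35 and 12.45 in KD3 and at 9.01, 9.22 and 9.34 in KD2, a difference of 3.15 ± 0.04 (SE, adjusted p = 3.11e-36, limma). DDIT3, which encodes CHOP, had a mean of 12.01 in KD3 and of 8.17 in KD2, below the limit, and was at least 10.7-fold higher. SESN2, a leucine sensor upstream of mTORC1, was at least 2.59-fold higher. CEBPB differed by 1.39. NUPR1, CHAC1 and ATF3 were called but stayed below the limit in both batches, with KD3 means of 8.45, 7.90 and 7.87. VEGFA, an angiogenic factor that ATF4 can induce, differed by 2.24, from 9.28 to 11.52, with 2 further probe sets in the same direction.

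The promoters of these genes show which of them carry the sequence element tied to ATF4. The core searched was TGATGNAA, where N is any base, on both strands of RefSeq windows from 250 bases before to 50 bases after a start (GRCh38.p14). Of the 23 list genes with such a window, 9 (39.1%) held a match: ASNS, ATF3, CARS1, CHAC1, GARS1, SLC1A4, SLC1A5, SLC3A2 and SLC7A1. Among all 15384 tested genes with a window, 3.61% held one. A gene counted if any of its windows matched, and the number of windows per gene was not matched. The list was drawn up for the ATF4 response, so these shares side by side are no test. A match is a description of the letters and no evidence of binding. The windows of the 3 matched genes with the largest difference among those above the noise limit in both batches are printed 5′ to 3′ in the sense of the gene, with the match in capitals. They are chr7:97872359-97872658 on the minus strand for ASNS, chr7:30594628-30594927 on the plus strand for GARS1 and chr11:62881449-62881748 on the plus strand for SLC3A2.
ASNS: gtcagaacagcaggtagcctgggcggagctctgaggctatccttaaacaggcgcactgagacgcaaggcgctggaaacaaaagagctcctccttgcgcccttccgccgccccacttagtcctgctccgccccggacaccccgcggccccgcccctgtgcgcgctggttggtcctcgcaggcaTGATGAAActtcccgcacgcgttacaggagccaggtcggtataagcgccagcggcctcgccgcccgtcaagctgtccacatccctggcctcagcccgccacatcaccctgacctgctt
GARS1: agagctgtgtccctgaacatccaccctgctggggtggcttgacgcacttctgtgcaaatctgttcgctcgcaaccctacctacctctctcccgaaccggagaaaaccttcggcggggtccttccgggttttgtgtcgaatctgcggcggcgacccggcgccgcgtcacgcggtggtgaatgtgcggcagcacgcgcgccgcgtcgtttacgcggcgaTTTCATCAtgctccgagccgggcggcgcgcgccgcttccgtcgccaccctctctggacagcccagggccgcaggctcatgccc
SLC3A2: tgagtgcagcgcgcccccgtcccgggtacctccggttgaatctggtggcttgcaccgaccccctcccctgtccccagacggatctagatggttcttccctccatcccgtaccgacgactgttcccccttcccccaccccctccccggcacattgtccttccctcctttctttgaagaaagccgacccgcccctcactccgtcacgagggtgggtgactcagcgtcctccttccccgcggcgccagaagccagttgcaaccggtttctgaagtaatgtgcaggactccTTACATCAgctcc
In ASNS the match began 68 bases before the start and in GARS1, where it stood on the opposite strand, 33 bases before it. In SLC3A2 it lay after the start, also on the opposite strand.

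**Figure D2:**
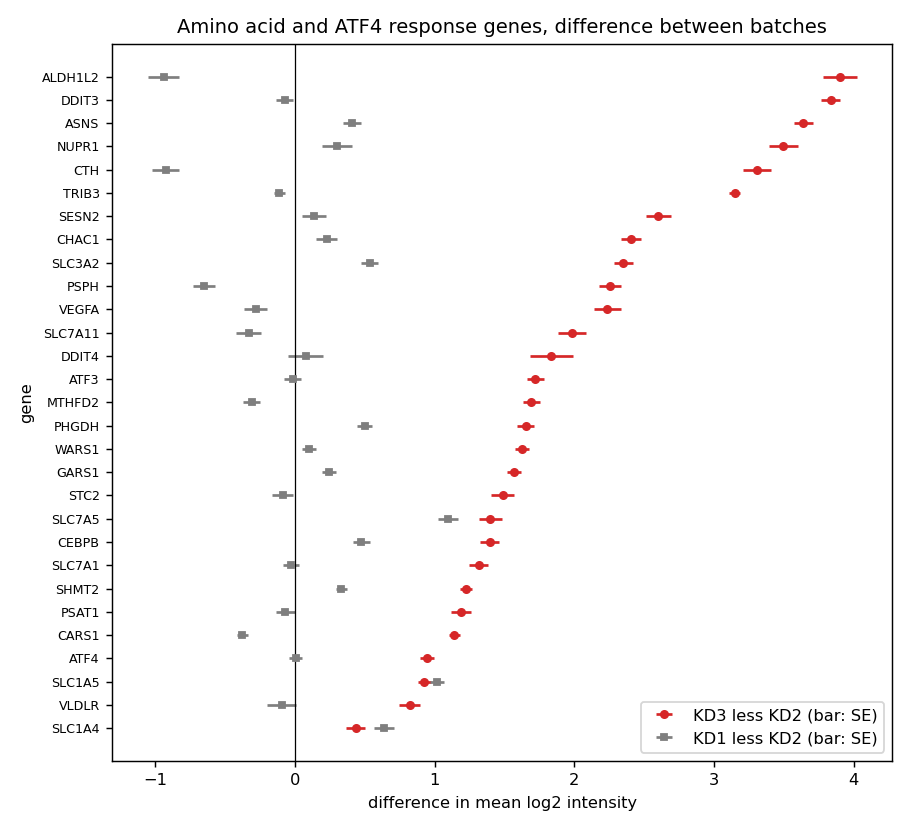
Difference in mean log2 intensity between batches for the 29 amino acid and ATF4 response genes, with its standard error: KD3 less KD2 (circles) and KD1 less KD2 (squares). All 29 circles lie to the right of 0, while the squares lie on both sides of it. Levels below the noise limit enter as measured, so the place of such a gene (ALDH1L2, for example) is no size of change.

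Enzymes that charge tRNAs were counted as a cytosolic and a mitochondrial family. Both families were picked with their values known, and the difference between them was not tested. GARS1, counted as cytosolic, also serves mitochondria. The cytosolic family shares 3 genes (WARS1, GARS1 and CARS1) with the amino acid and ATF4 list, so these 2 lists are not separate. Of 17 cytosolic tRNA synthetases measured, 13 were called higher and 2 lower, with a median of 0.91, and 6 were higher by at least 2-fold. With the covariate 12 were called higher and 1 lower. SARS1, which charges serine tRNA, was at 12.70, 12.81 and 12.88 in KD3 and at 10.44, 10.67 and 10.88 in KD2, a difference of 2.13 ± 0.04 (SE, adjusted p = 6.32e-30, limma). YARS1 for tyrosine differed by 1.76, WARS1 for tryptophan by 1.63, GARS1 for glycine by 1.57, AARS1 for alanine by 1.55 and CARS1 for cysteine by 1.14. RARS1 for arginine was lower by a difference of -0.31 and HARS1 for histidine by -0.13, and VARS1 for valine was at -0.01 (adjusted p = 0.866, limma). Of 15 mitochondrial synthetases, 4 were called higher and 4 lower, with a median of 0.02, none differed by 2-fold, and with the covariate 3 were called higher and none lower. WARS2, the mitochondrial counterpart of WARS1, was at least 1.13-fold higher and CARS2, the counterpart of CARS1, differed by -0.41, which was not called with the covariate.

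**Figure D3:**
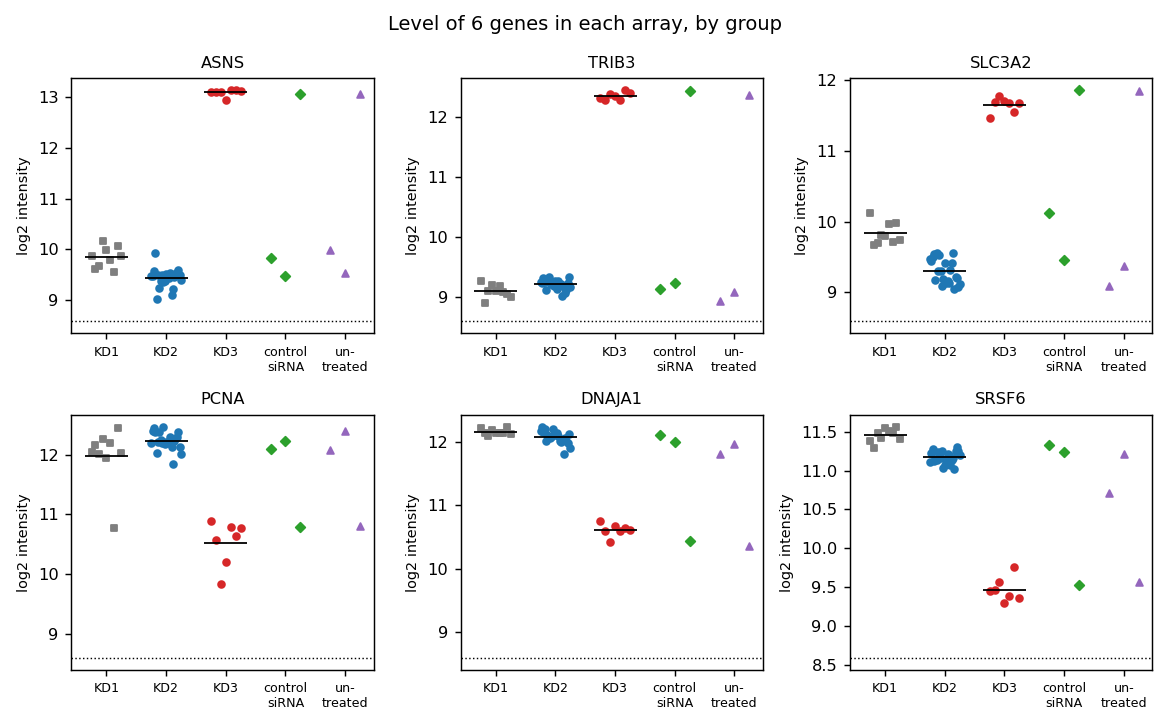
Log2 intensity of 6 genes in every array, by group, with bars for the batch means and a dotted line at the noise limit of 8.59. ASNS, TRIB3 and SLC3A2 were higher in all 7 KD3 arrays than in any KD2 array, and PCNA, DNAJA1 and SRSF6 lower (the low KD1 point of PCNA is the array of siRNA against it). Control siRNA array 3 and untreated array 3 lay at or near the KD3 level.

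Single genes were named by the size of the fitted difference, in which levels below the noise limit enter as measured, so their order is no order of fold changes. Among the 1971 genes that were called, did not overlap and reached the noise limit in a batch, the 14 highest in that order included 5 of the list above (ALDH1L2, DDIT3, ASNS, CTH and TRIB3). GDF15, a secreted stress cytokine, was at 12.20, 12.56 and 12.95 in KD3 and at 5.68, 6.39 and 9.04 in KD2. It was at least 16.1-fold higher in KD3 (adjusted p = 1.56e-19, limma). INHBE, an activin subunit, had a KD3 mean of 9.26 against 3.24 (at least 1.59-fold), TAC1, the substance P precursor, 10.54 against 4.56 (at least 3.86-fold) and UTS2, urotensin 2, 9.96 against 4.93 (at least 2.59-fold). ASS1, which makes argininosuccinate on the path to arginine, was at 9.55 against 5.56 (at least 1.94-fold). S100P, a calcium-binding protein, was at least 9.02-fold higher and TXNIP, a thioredoxin inhibitor, at least 6.68-fold. LURAP1L and ECM2 passed the limit only in KD3 as well, at means of 9.32 and 8.71.

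Among the 14 lowest by the same rule, NFATC2, a calcineurin-dependent transcription factor, was at 6.83, 7.29 and 7.73 in KD3 and at 10.01, 10.42 and 10.89 in KD2. It was at least 3.62-fold lower, and its other probe set above the limit moved the same way. S100B, a melanoma marker, was at a mean of 7.66 against 9.94 (at least 2.55-fold lower), the intermediate filament protein SYNM at 7.23 against 9.60 (at least 2.02-fold) and ND6, encoded in mitochondrial DNA, at 8.27 against 10.41 (at least 3.55-fold). PHLDB2, which anchors microtubules at the cell cortex, and PXYLP1, a phosphatase of proteoglycan synthesis, were above the limit in both batches and fell by 2.37 and 2.33 on the log2 scale. The protocadherin PCDH9, the matrix proteins MGP and HMCN1, the secretory kinase FAM20C and SHISA2, TENT5A and FCRLA completed the group with CCNE2, described below. PCDH9 and HMCN1 were below the limit in KD1 as well, at means of 8.03 and 7.97.

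The replication and G1/S programme was lower in KD3. Of 45 measured, 39 were called lower, against 28.7% of all genes, and none higher, with a median of -0.64. A fitted difference of at least 2-fold was found for 8, with levels below the noise limit as measured. The list was not uniform over the KD3 cultures: its median was between -0.67 and -0.46 in 5 of them, -0.87 with siRNA against MCM2 and -0.94 with siRNA against MITF. Without those 2 arrays, a choice made after seeing the data, the list median was -0.52. KD2 arrays lay between -0.46 and 0.27, so the ranges met at their edge. With the covariate 20 genes were called lower, with a median of -0.53.

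All 6 subunits of the MCM helicase were lower, with a median of -0.74, as were all 5 factors of origin licensing (median -0.62), all 4 of chromatin and histone supply (median -0.79) and all 6 of the cyclin and E2F group (median -0.89). With the covariate the calls left were 5 of 6 for the helicase, 1 of 5 for origin licensing, 3 of 4 for chromatin and histone supply and 4 of 6 for the cyclin and E2F group. PCNA, the sliding clamp, was at 9.83, 10.64 and 10.89 in KD3 and at 11.85, 12.22 and 12.47 in KD2, a difference of -1.71 ± 0.09 (SE, adjusted p = 2.64e-18, limma). The lowest of these values was that of MCM2 siRNA. FEN1, which trims Okazaki fragments, differed by -1.11 and its other probe set moved the same way. CCNE2, cyclin E2, was below the limit in KD3, at a mean of 6.52 against 8.71. MCM10, which joins the active helicase, was at 7.69 in KD3 against 8.82 (at least 1.18-fold lower) and was not called with the covariate. PRIM1, POLD1, RFC2, RFC4, GINS4 and RRM1 did not pass the test, with differences between -0.12 and 0.10.

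Genes of G2/M and mitosis did not follow the replication genes. Of 44, 20 were called higher and 8 lower, with a median of 0.17, and the array medians overlapped between the batches. The size of that median rested on the processing: it was 0.34 with the covariate, 0.34 with the probe set of largest variance, 0.32 without the arrays of MCM2 and MITF siRNA, 0.11 among members above the limit and 0.06 among probe sets above it. The spindle kinase NEK2 differed by 1.09, and 9.66, its lowest KD3 value, was above 9.45, its highest in KD2. PLK1, the polo-like kinase, was at least 1.61-fold higher and the centromeric histone CENPA at least 1.22-fold, both from KD2 means below the limit. ANLN, which works in cytokinesis, was lower by a difference of -0.85 and was not called with the covariate. With the covariate 12 were called higher and 2 lower. The array medians were lowest in KD3 with siRNA against MITF (-0.17) and highest at 0.48. PLK1 was higher still in KD1, at a mean of 9.93, so that KD3 lay below KD1 for it (-0.66). Among 13 replication-dependent histone genes, 8 were called higher and none lower, with 3 called under the covariate. Only H2AC6 and H2BC12 were above the limit in a batch. H2AC6 was at 9.23 in KD3 against 6.96 (at least 1.56-fold higher). H2BC12 differed by 0.36, and its call was lost with the covariate (0.22), without the KD3 array of MCM2 siRNA (0.30) and without those of MCM2 and MITF siRNA (0.31).

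**Figure D4:**
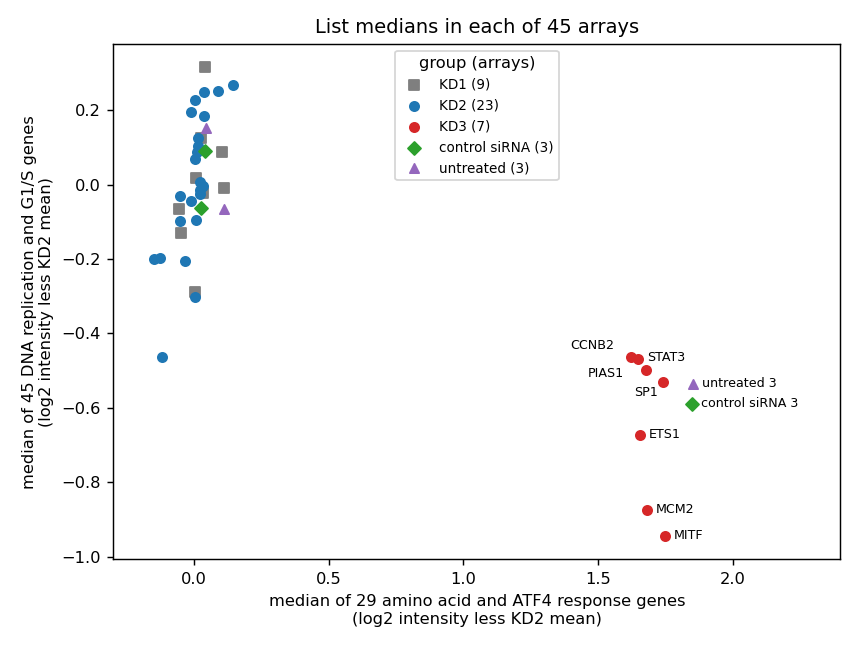
Median of the 29 amino acid and ATF4 response genes (horizontal axis) and of the 45 DNA replication and G1/S genes (vertical axis), as log2 intensity less the KD2 mean of each gene, in each of 45 arrays. The KD3 arrays, named by siRNA target, lie at 1.62 to 1.75 on the horizontal axis and spread from -0.94 to -0.46 on the vertical one, and control siRNA array 3 and untreated array 3 lie beside them.

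The KD3 levels were also met in arrays with no targeting siRNA. Control siRNA array 3 and untreated array 3 had amino acid list medians of 1.85 each and replication list medians of -0.59 and -0.53. Control siRNA arrays 1 and 2 were at 0.04 and 0.02 on the amino acid list, and untreated arrays 1 and 2 at 0.11 and 0.04. ASNS was at 13.04 and 13.05 in control siRNA array 3 and untreated array 3 and between 9.48 and 9.98 in the other 4. The 2 arrays numbered 3 are nearly 1 array, differing by at most 0.15 (log2) at any probe set, where control siRNA array 1 and untreated array 1 differed by up to 5.07, so they are counted as 1 sample. Their batch is not given, they entered no test, and their ACTB 3' less 5' differences (0.57 and 0.45) and 18S rRNA controls (6.90 and 6.87) also lay near those of KD3.

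Most heat shock genes were lower in KD3, and ER (endoplasmic reticulum) chaperones with XBP1 targets were called in both directions. Of 18 heat shock genes, 13 were called lower and 1 higher (10 and 1 with the covariate), with a median of -0.43, and no array of KD3 (-0.51 to -0.36) met one of KD2 (-0.08 to 0.08). DNAJA1, a cochaperone of HSP70, was at 10.42, 10.61 and 10.76 in KD3 and at 11.81, 12.08 and 12.24 in KD2, a difference of -1.47 ± 0.05 (SE, adjusted p = 4.05e-24, limma). HSPE1, the mitochondrial HSP10, differed by -1.16 and the cochaperone BAG3 by -0.96. HSPA9, the mitochondrial HSP70, was the single gene that was higher, by 1.23, with both of its other probe sets in that direction. Of 22 ER chaperones and XBP1 targets, 9 were called higher and 7 lower, with a median of 0.10, and with the covariate 10 and 4, with a median of 0.21. HERPUD1, of ER-associated degradation, differed by 1.65 and SEL1L, of the same pathway, was at least 1.81-fold higher. XBP1 and its target DNAJB9 were at 0.96 and 0.97. HSPA5, the ER chaperone BiP, was at 0.09 ± 0.04 (SE) and did not pass the test (adjusted p = 0.0834, limma).

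Splicing factors were lower and ribosomal proteins almost level. Of 31 splicing factors, 22 were called lower and 2 higher (17 and 2 with the covariate), with a median of -0.34, and the array medians did not overlap (-0.41 to -0.29 in KD3, -0.06 to 0.08 in KD2). The median was -0.22 with the mean of a gene's probe sets and -0.56 with that of largest variance. SRSF6, an SR protein that directs exon inclusion, was at 9.29, 9.45 and 9.76 in KD3 and at 11.02, 11.16 and 11.30 in KD2, a difference of -1.70 ± 0.05 (SE, adjusted p = 4.04e-26, limma). The SR proteins SRSF4 and SRSF5 differed by -1.16 and -1.13 and the branch point protein SF1 was at least 1.96-fold lower. SR protein genes give several transcripts, and 1 probe set may follow only some of them. Of 30 cytosolic ribosomal protein genes, 2 were called higher and 3 lower (2 and 1 with the covariate), with a median of 0.02, under the share of calls among all genes. RPS15 was at -0.27, RPL22 at -0.13, RPS10 at -0.08 and RPS7 at 0.09, and the last 3 lost their calls under some of the alternatives.

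**Figure D5:**
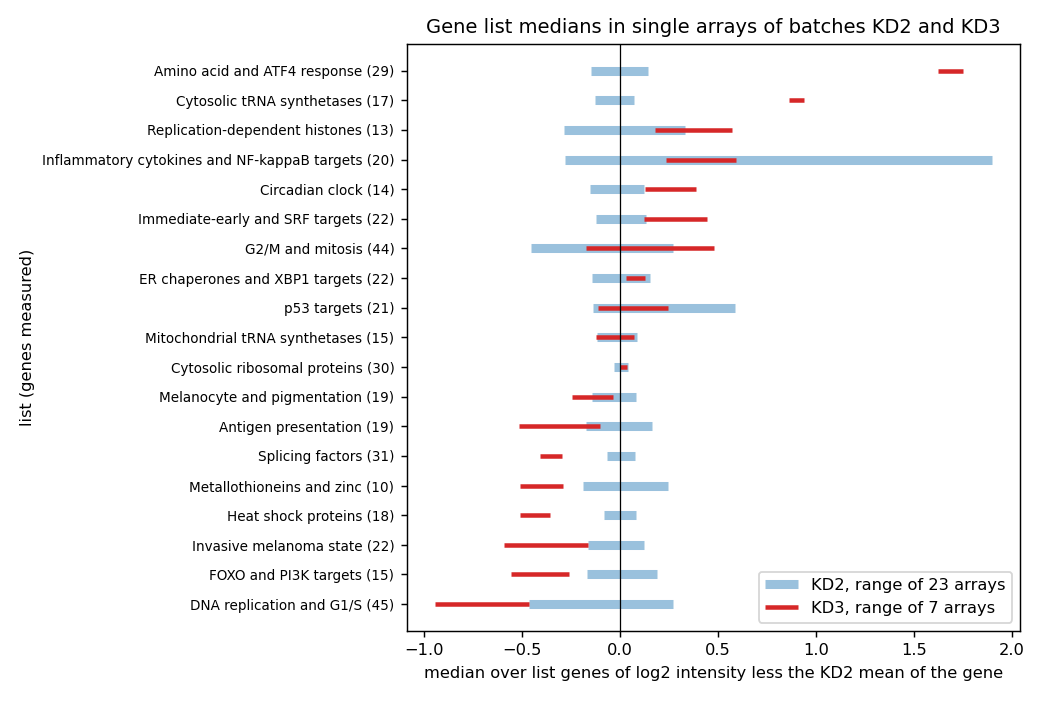
Range over arrays of the median of each gene list, taken as log2 intensity less the KD2 mean of each gene: 23 KD2 arrays (wide bars) and 7 KD3 arrays (narrow bars). The number of genes measured stands beside each list. The amino acid and ATF4 response list (1.62 to 1.75 in KD3) and the cytosolic tRNA synthetases, which share 3 genes, stand highest, the DNA replication list lowest.

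Inducible genes of signalling and inflammation were higher in part. Of 22 immediate-early and SRF target genes, 14 were called higher and 2 lower, with a median of 0.24, and 8 and 1 with the covariate. The median was 0.79 among probe sets above noise and 0.75 among members above noise, a filter that KLF4 and JUNB passed through KD3 alone. KD1 against KD2 had a median of 0.25, with 12 genes called higher and 1 lower. EGR1, an early growth response factor, was at 10.34, 11.49 and 12.36 in KD3 and at 8.37, 9.43 and 10.26 in KD2, a difference of 2.12 ± 0.19 (SE, adjusted p = 7.25e-12, limma). IER2 differed by 1.34, and KLF4, from a KD2 mean of 8.55 just below the limit, was at least 3.93-fold higher. JUNB, an AP-1 subunit, was at 8.70 against 7.90 and overlapped. Of 20 inflammatory cytokines and NF-kappaB targets, 10 were called higher and none lower (7 and none with the covariate), and only 6 were above the limit. Their median was 0.32, or 0.73 with the covariate and 0.47 when the KD2 arrays of FOXM1 and PIK3CB siRNA were left out. Among members above noise it was 2.02, but IL1A and LIF passed that filter through KD3 alone. That value is no size of change of the list. The highest array median of the list was 1.90 in KD2 and 0.59 in KD3. IL24, a cytokine of the IL-10 family, was at 10.97, 11.78 and 11.99 in KD3 and at 8.24, 9.45 and 10.21 in KD2, a difference of 2.24 ± 0.17 (SE, adjusted p = 1.86e-13, limma). CXCL8, or interleukin 8, differed by 2.07, but its highest KD2 array, at 12.94, exceeded every KD3 array (up to 11.51). IL1A and LIF were at least 1.63-fold higher each, with KD2 arrays that reached into the KD3 range.

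Targets of p53 did not move as a group. Of 21, 8 were called higher and 7 lower (6 and 4 with the covariate), with a median of 0.09, which was 0.22 among members above noise and -0.08 among probe sets above it. The 4 with the largest differences were GDF15, SESN2, PHLDA3 and TNFRSF10B, and the first pair is also induced through ATF4. PHLDA3, an AKT inhibitor, was at least 1.44-fold higher and the death receptor gene TNFRSF10B differed by 1.12. CDKN1A, the p21 inhibitor that p53 induces, was at 9.47 in KD3 and 9.15 in KD2, and did not pass the test (adjusted p = 0.157, limma).

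Genes of the melanocyte lineage were called lower in part. Melanoma markers were read as marks of lineage, which cannot tell A375 from another melanoma line. SOX10 was above the limit in every batch (means of 10.21 in KD3, 10.89 in KD2 and 11.74 in KD1). PMEL, MLANA and TYR were below it in all, and PAX3 too, and the means of S100B and MITF were below it in KD3. Of 19 melanocyte genes, 9 were called lower and 2 higher, with a median of -0.16 and only 5 above the limit. With the covariate 4 were called lower and 2 higher. The median was -0.72 among members above noise and -0.07 with the mean of a gene's probe sets. SOX10 differed by -0.68, ERBB3, a growth factor receptor of this lineage, by -0.72 and GPNMB by -0.87. ERBB3 was not called with the covariate, and GPNMB not with the mean of its probe sets. CSPG4, the melanoma proteoglycan, was at 8.89 against 8.66. Of 22 genes of the invasive melanoma state, 12 were called lower and 6 higher, with a median of -0.44, and with the covariate 6 and 2. The median was -0.16 among probe sets above noise, -0.27 with the mean of a gene's probe sets and -0.71 with that of largest variance. WNT5A, the noncanonical Wnt ligand, was at least 1.63-fold lower, THBS1, thrombospondin, at least 1.20-fold, and the collagen-crosslinking enzyme LOXL2 differed by -0.92. FN1, fibronectin, was at -0.98 and was not called with the covariate.

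Of 19 antigen presentation genes, 11 were called lower and 4 higher (9 and 2 with the covariate), with a median of -0.29, or -0.45 among probe sets above noise. The 4 largest differences among those above the limit were of HLA class II, which presents peptides to CD4+ T cells. HLA-DRA was at 11.11, 11.53 and 11.74 in KD3 and at 12.41, 12.67 and 12.94 in KD2, a difference of -1.22 ± 0.07 (SE, adjusted p = 1.14e-17, limma). HLA-DMA, which loads the peptides, differed by -1.53, HLA-DPA1 by -1.14 and HLA-DRB1 by -1.12. HLA class II genes are alike in sequence, and signal of 1 gene on probes of another cannot be separated here. Another 18 gene lists, among them glycolysis, the respiratory chain and cholesterol synthesis, had medians between -0.23 and 0.24.

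The genes silenced in KD3 itself were lower in their own arrays, and some also differed between the batches without them. CCNB2 was at 8.30 in its own array and between 10.01 and 10.58 in the other 6 of KD3, MCM2 at 8.08 and between 9.62 and 10.12, and STAT3 at 7.41 and between 9.24 and 9.59. MITF, the melanocyte master factor, was at 5.67 in its own array and between 7.18 and 7.99 in the others, all below the lowest KD2 array (8.65). Without its own array MITF was still called lower (adjusted p = 5.71e-17, limma), and with the KD3 mean below the limit it was at least 1.33-fold lower. MCM2 differed by -0.81 and STAT3 by -0.51 without their own arrays, and PIAS1, a SUMO ligase, was below the limit in KD3, at least 1.12-fold lower. ETS1 was the one that was higher, by 1.09 ± 0.10 (SE, adjusted p = 1.89e-11, limma) without its own array. SP1 was at -0.20 (adjusted p = 0.0497), and its probe set of largest variance gave 0.31 in the other direction over all KD3 arrays. CCNB2 was at 0.12 and did not pass the test (adjusted p = 0.341, limma).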

How the data were processed

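Expression was measured in A375 cells on 45 Affymetrix U133 plus 2.0 arrays. The authors applied RMA before deposit, and what was deposited are intensities on a linear scale for 54675 probe sets. The version of RMA is not given in the sources used here. Their log2 was used with no other scaling. Arrays have no read depth, and precision is limited by how many there are. Of 54613 probe sets other than controls, 41091 had 1 gene name, 1801 several and 11721 none. Each gene was read from the probe set whose mean over the 45 arrays was highest. Batches were taken from the study's table by the siRNA target in the labels.

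KD3 was compared with KD2 in limma 3.58.1 (R 4.3.3, lmFit and eBayes on 30 arrays), and KD3 with KD1 and KD1 with KD2 in 1 fit of 39 arrays, with Benjamini-Hochberg adjustment over all probe sets and a threshold of 0.05. Array measures were compared by an exact two-sided permutation test over 2035800 regroupings, adjusted over 8 measures. The fit was tested on simulated data. Genes were named by rule: the 14 largest differences in each direction, up to 4 called genes of each list described, the 7 targets and the melanoma markers. Genes named beyond it, all of the amino acid, tRNA synthetase, replication, ER chaperone, p53 and epithelial lists, were picked with their values in view. The members and gene lists were chosen with earlier results of these data known. A list is described by its calls and its median, with no test of the list. Alternatives varied the normalisation, the noise filter, the variance model, the arrays, the covariate and the probe set of a gene. Promoters were those of RefSeq (GRCh38.p14).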

Additional observations from a re-analysis of the deposited data

Results flagged for a closer look

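For each value reported, the gap between the lowest or highest of the 7 KD3 arrays and its neighbour was divided by the range of the 7, and values whose ratio passed Dixon's limit of 0.568 are given here. Chance alone does this in about 1 group in 20. With 131 values screened, several would pass by chance, and the values below that are not of silenced genes were not tested further. All 7 silenced genes were lowest in the array of their own siRNA, with ratios of 0.753 for CCNB2, 0.747 for ETS1, 0.755 for MCM2, 0.653 for MITF, 0.690 for PIAS1, 0.831 for SP1 and 0.838 for STAT3.

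The other values concerned genes that were not silenced. ASNS was lowest with MITF siRNA (12.94, with the others between 13.08 and 13.13, ratio 0.753). With SP1 siRNA, LOXL2 was at 8.53 (others 8.84 to 9.07, ratio 0.581) and S100P at 11.36 (others 11.72 to 11.94, ratio 0.614). TNFRSF10B was lowest with CCNB2 siRNA (10.47, others 10.79 to 10.93, ratio 0.696). The median of the cytosolic ribosomal proteins was lowest with MITF siRNA, at -0.001 against 0.02 to 0.03 in the others (ratio 0.572), and the poly-A controls were highest with ETS1 siRNA (5.17, others 4.69 to 4.89, ratio 0.572).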

How the results depend on the processing

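The amino acid and ATF4 list kept its direction under every alternative run, with medians of 1.77 with the mean of a gene's probe sets, 1.87 with the probe set of largest variance and 1.60 among probe sets above noise only. The replication list stayed within 1 SD of its value. Adding the 3' less 5' covariate left 13630 probe sets called (6732 higher, 6898 lower) and 6016 genes (3161 lower), with 706 genes higher by at least 2-fold. That covariate nearly follows the batch, and the cause of the change was not tested. Testing only probe sets above noise, by its construction fewer, left 5944 probe sets (2719 higher, 3225 lower) and 3773 genes (1673 higher, 2100 lower, of which 114 and 168 by at least 2-fold). That filter dropped probe sets bright in KD3 alone and kept those bright in KD2 alone, so its higher and lower counts cannot be compared. The probe set of largest variance gave 704 genes higher by at least 2-fold, and the mean of a gene's probe sets 230 lower. Why was not tested. SP1 turned to 0.10 with the mean of its probe sets and to 0.31 with that of largest variance. Of 1848 values of the 104 named genes under alternatives, 1814 kept their direction and call, 32 kept the direction and lost the call and 2 turned. Of 361 list medians, 323 moved by less than the spread between KD3 arrays. Among probe sets above noise only, the circadian list turned to -0.0105 and the p53 targets to -0.08, and the mitochondrial synthetases, near 0, changed sign under 3 settings. Leaving out any KD3 array moved no count of calls by over 1.5 times. Leaving out the arrays of MCM2 and MITF siRNA was chosen after seeing the data.

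No paired analysis was possible because the arrays of KD2 and KD3 carry different siRNAs and share no replicate number in the labels. Dim genes are limited by the noise level, and 1 batch of each kind limits all comparisons.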

Other observations

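Metallothionein and zinc genes, which bind and move metals, were lower in KD3: of 10 measured, 8 were called lower and none higher (6 and none with the 3' less 5' covariate), with a median of -0.35, or -0.54 with the covariate. MT1X was at 10.74, 10.96 and 11.18 in KD3 and at 11.22, 11.58 and 11.90 in KD2, a difference of -0.59 (adjusted p = 8.55e-09, limma). MT2A and MT1F differed by -0.48 each and MT1G by -0.42. In KD1 the same genes were higher than in KD2 (0.44, 0.40, 0.32 and 0.30), so their KD2 means lay between those of the other batches. Genes of this family are alike in sequence and their probe sets may share signal.

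Of 14 circadian clock genes, 7 were called higher and 1 lower (8 and none with the covariate), with a median of 0.25, which was 0.54 with the covariate and 0.13 with the mean of a gene's probe sets. NFIL3, a repressor in the clock, was at least 1.30-fold higher in KD3, and BHLHE40 at least 1.90-fold, with overlap. NR1D2 was at 8.75 against 8.34. Of 15 FOXO and PI3K target genes, 9 were called lower and 3 higher, with a median of -0.48. With the covariate 3 were called lower and 4 higher, with a median of -0.30, and the median was -0.20 with the mean of a gene's probe sets and -0.29 among members above noise. In KD1 the list was also below KD2, with a median of -0.32. IRS2, an adaptor of the insulin receptor, differed by -0.62, and BCL6 was at 7.31 against 8.63. TXNIP, on the same list, was higher. No hypothesis was tested.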
